A study of Rattus norvegicus with 5 samples.

Results

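The 5 kainate receptor subunit genes Grik1, Grik2, Grik3, Grik4 and Grik5 and the delta receptor subunit gene Grid1 were followed in rat striatal projection neurons. They were found by symbol in the authors' deposited comparison and read by Ensembl identifier in the count tables, where all 6 had a row among 32285 genes. All 6 also passed the filter on low counts, which kept 13811 genes for testing. Neurons had been filled with fluorescent tracer from the region their axons reach and were cut out of tissue sections by laser. Striatomesencephalic neurons, the direct pathway cells that project to the midbrain, gave 2 libraries. Striatopallidal neurons, the indirect pathway cells that project to the pallidum, gave 3 libraries. No genotype, drug treatment, strain, sex or age is given in the sources used here, and the number of cells or animals behind a library is not given either.

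Kainate receptors are glutamate-gated ion channels built from subunits that assemble as tetramers. The subunits GluK1, GluK2 and GluK3, encoded by Grik1, Grik2 and Grik3, can form channels by themselves. GluK4 and GluK5, encoded by Grik4 and Grik5 and also known as KA1 and KA2, bind the ligand more tightly and need one of the other kind of subunit to make a working receptor. In the striatum kainate receptors are known from spiny projection neurons and from the terminals of their inputs. Delta receptors, of which GluD1 (Grid1) is a subunit, belong to the same superfamily but are known mainly as synaptic organizers that bind secreted cerebellins, which in turn bind presynaptic neurexins.

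The windows around the annotated start of 3 of the genes are shown because these genes stand for the patterns described below. Grik2 took most of the kainate receptor counts, Grik4 had the largest fold change between the groups, and Grik5 was high in a single library. Each window has 300 bases, 250 before and 50 after the start, from RefSeq on build GRCr8. Capitals mark matches to 4 motifs on either strand, and no matches of different motifs overlapped. The TATA box was searched as the letters TATAAA. The cAMP response element was searched as TGACGTCA. For the CCAAT box the letters were CCAAT, and the GC box was searched as GGGCGG.
Grik2, chr20:54415234-54415533, minus strand: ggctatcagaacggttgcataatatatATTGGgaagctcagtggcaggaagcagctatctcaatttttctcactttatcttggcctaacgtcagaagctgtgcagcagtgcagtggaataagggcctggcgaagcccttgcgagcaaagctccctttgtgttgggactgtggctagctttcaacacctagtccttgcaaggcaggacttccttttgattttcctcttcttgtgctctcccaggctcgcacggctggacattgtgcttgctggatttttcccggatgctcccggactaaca
Grik4, chr8:52102014-52102313, minus strand: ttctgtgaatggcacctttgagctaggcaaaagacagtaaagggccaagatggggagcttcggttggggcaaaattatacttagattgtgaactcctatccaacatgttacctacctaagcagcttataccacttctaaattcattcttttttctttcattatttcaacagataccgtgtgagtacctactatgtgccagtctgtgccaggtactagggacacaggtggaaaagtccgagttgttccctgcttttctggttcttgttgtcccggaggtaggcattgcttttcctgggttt
Grik5, chr1:89794860-89795159, minus strand: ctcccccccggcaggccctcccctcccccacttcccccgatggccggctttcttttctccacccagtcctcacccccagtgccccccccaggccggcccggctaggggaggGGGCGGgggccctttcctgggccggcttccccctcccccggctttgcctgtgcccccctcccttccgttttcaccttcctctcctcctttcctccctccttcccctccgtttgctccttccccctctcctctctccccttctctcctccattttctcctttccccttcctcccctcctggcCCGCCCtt

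Of the 6 genes, 5 had such a window. The Grik2 window held 1 CCAAT match, a motif present in 37.5% of all 33469 windows of this length. The Grik5 window held 2 GC boxes and the Grik3 window 6, where 33.1% of all windows held at least 1. Grik4 and Grik1 had no match to any of the 4 motifs. No window of the 5 held a TATA box or a cAMP response element by these letters, which 14.2% and 1.83% of all windows did. GC content was 50.3% for Grik2, 44.0% for Grik4 and 69.0% for Grik5, against a median of 51.7% over all windows. It reached 82.3% for Grik3 and was 58.7% for Grik1. A match is a string of letters and not a measured binding site, and which start the captured neurons used was not measured.

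Library totals ran from 20845178 to 24805062 counts. Drd1, the dopamine receptor of the direct pathway, had 825 and 1065 CPM in striatomesencephalic libraries and 512, 403 and 390 CPM in striatopallidal libraries. Drd2, the dopamine receptor of the indirect pathway, had 138 and 108 CPM in striatomesencephalic libraries and 533, 505 and 493 CPM in striatopallidal libraries. Both receptors ran in the direction the labels give, and both were also read in the other group. In striatopallidal libraries Drd1 lay only a little below Drd2, and the source of the Drd1 reads there was not tested. Striatopallidal replicate 2 stood apart, with Spearman correlations of 0.785 to 0.820 with the other libraries over the tested genes, against 0.845 to 0.907 among the other 4. The lowest of these, 0.845, was between the 2 striatomesencephalic libraries. Each of them correlated more closely with striatopallidal replicates 1 and 3, at 0.852 to 0.880. Striatopallidal replicate 2 also had the fewest genes with at least 10 counts, 11871 against 12844 to 13969. CPM here is the count scaled to a common library total, after TMM scaling. The TMM factor was 0.774 for striatopallidal replicate 2 and 1.02 to 1.14 for the others, which raises CPM values in that library relative to plain totals. Because each library holds RNA of captured material as a bulk, fewer cells of a type and less RNA per cell cannot be told apart.

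None of the 6 genes passed the Benjamini-Hochberg threshold of 0.05 in edgeR's quasi-likelihood test, and neither did any other gene (0 of 13811, or 0%). Adjusted p-values of the 6 ran from 0.779 to 0.930. DESeq2 called 226 genes (1.75% of those it gave an adjusted p) and none of the 6, and limma voom called 0 genes. Without adjustment, 839 genes (6.07%) had a p below 0.05 in edgeR's test, and of the 6 genes only Grik4 was among them. The log2 fold change, striatomesencephalic minus striatopallidal, was negative for 5 of the 6 genes, with a median of -1.17. Over all genes tested 52.6% had a negative value and the median was -0.059. Without striatopallidal replicate 2, 4 of the 6 were negative and their median was -0.69, beside a median of 0.045 over all genes. The 52.6% is from all 5 libraries, and the share of all genes was not computed without that library. Grik1 and Grik4 were lower in both striatomesencephalic libraries than in every striatopallidal library, a pattern shown by 11.2% of the genes tested, and none of the 6 was higher in both, as 10.4% of the genes tested were.

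**Figure D1:**
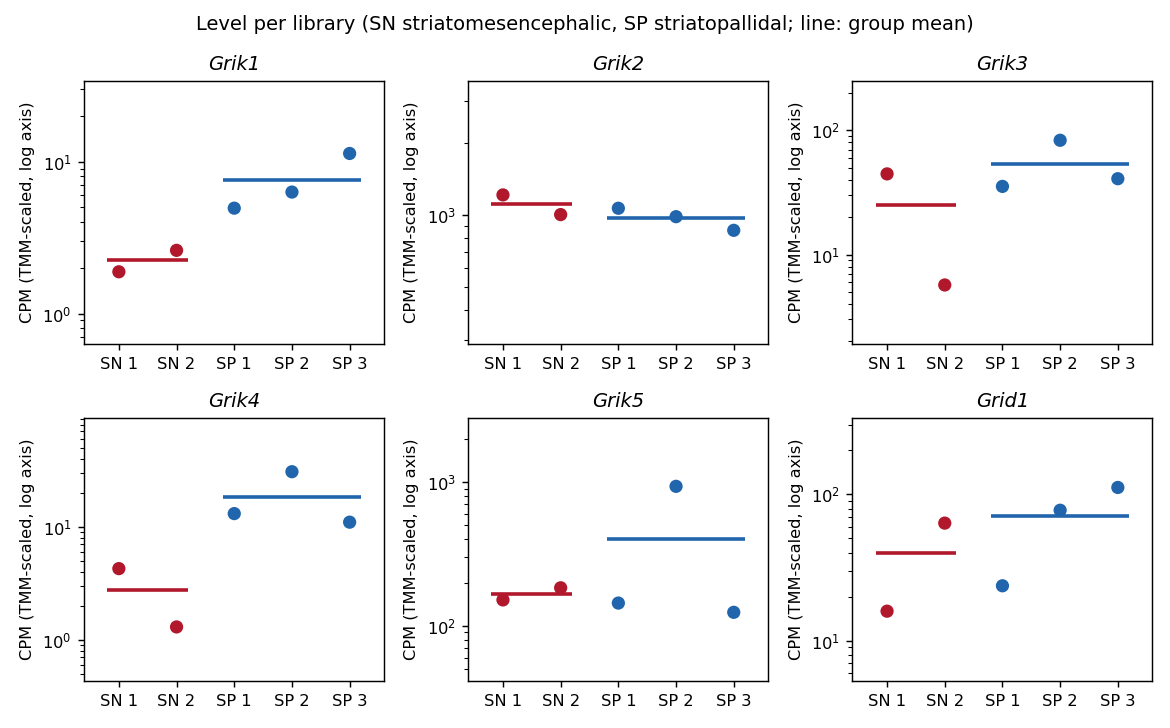
TMM-scaled CPM on a log axis for each of the 6 genes, with 1 point per library (SN striatomesencephalic, SP striatopallidal) and a line at each group mean. Grik1 and Grik4 separate the groups, Grik2 lies between 865 and 1217 CPM in all 5 libraries, and Grik5 reaches 935 CPM in SP 2 alone.

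Among the subunits that can form channels by themselves, Grik2 had 1217 and 1007 CPM in striatomesencephalic libraries and 1071, 987 and 865 CPM in striatopallidal libraries. The groups overlapped, and the highest and lowest library differed little. The means were 1112 ± 149 CPM for striatomesencephalic (SD, n = 2) and 974 ± 103 CPM for striatopallidal neurons (SD, n = 3). The log2 fold change was 0.19 ± 0.28 (SE), with an adjusted p of 0.930 in edgeR's quasi-likelihood test. Under 12 alternatives it ran from 0.052 to 0.33. The spread of log2(CPM + 1) around the group means was 0.17 for Grik2, smaller than that of all but 2.93% of the genes tested, whose median was 0.74.

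Grik1 was a low-count gene, with 41 and 60 raw counts in striatomesencephalic libraries and 134, 121 and 270 raw counts in striatopallidal libraries. Scaled, this was 1.88 and 2.61 CPM in striatomesencephalic and 4.94, 6.31 and 11.3 CPM in striatopallidal libraries. Every striatopallidal library lay above both striatomesencephalic ones. Group means were 2.24 ± 0.51 CPM for striatomesencephalic (SD, n = 2) and 7.53 ± 3.36 CPM for striatopallidal neurons (SD, n = 3). The log2 fold change of -1.74 ± 1.0 (SE) did not pass, with an adjusted p of 0.795 in edgeR's test and 0.411 in DESeq2. It stayed between -1.99 and -1.33 under the alternatives.

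Grik3 had 44.6 and 5.69 CPM in striatomesencephalic libraries and 35.4, 83.3 and 40.8 CPM in striatopallidal libraries. Striatomesencephalic replicate 1 lay inside the striatopallidal range, while replicate 2 lay 6.22-fold below the next lowest library, on 131 raw counts. On the log2 scale the fold change was -1.08 ± 0.95 (SE), with an adjusted p of 0.859 in edgeR's test. It was -3.22 without striatomesencephalic replicate 1, -0.25 without striatomesencephalic replicate 2 and -0.60 without striatopallidal replicate 2. A value at least as far below the next library was found in striatomesencephalic replicate 2 for 224 of the 13811 genes (1.62%), and in striatopallidal replicate 2 for 1074 genes (7.78%).

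Of the subunits that need a partner, Grik4 had 93 and 30 raw counts in striatomesencephalic libraries and 355, 589 and 262 raw counts in striatopallidal libraries. Scaled, this was 4.27 and 1.30 CPM in striatomesencephalic and 13.1, 30.7 and 11.0 CPM in striatopallidal libraries. The groups did not overlap, and the mean was 6.55-fold higher in striatopallidal neurons. Means were 2.79 ± 2.10 CPM for striatomesencephalic (SD, n = 2) and 18.3 ± 10.8 CPM for striatopallidal neurons (SD, n = 3). The log2 fold change was -2.71 ± 1.04 (SE), the largest in size of the 6 genes. It had an unadjusted p of 0.0346 and an adjusted p of 0.779 in edgeR's test, and an adjusted p of 0.0932 in DESeq2. Under the 12 alternatives the log2 fold change ran from -3.80, without striatomesencephalic replicate 1, to -2.09, without striatomesencephalic replicate 2. Leaving out striatopallidal replicate 2, the highest library for Grik4, gave -2.11.

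Markers of other cells differed between the groups in both directions beside Grik1 and Grik4, and their part in these differences was not tested. Of 31 such markers found, 7 were lower and 4 higher in both striatomesencephalic libraries than in every striatopallidal library, where 9.91% of all genes tested were lower and 11.2% higher on this scale, CPM of the plain library totals. The vascular list, of which Flt1, Vtn and Rgs5 were found among 6 listed, summed to 19.8 and 42.7 CPM in striatomesencephalic libraries and to 47.5, 77.8 and 52.2 CPM in striatopallidal libraries. Vtn was at 0 in striatomesencephalic replicate 1, and of the 3 genes only Flt1 was lower in both striatomesencephalic libraries.

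Of the 8 astrocyte markers, 2 were lower and 2 higher in both striatomesencephalic libraries. Gfap, the astrocyte filament gene, had 11.5 and 3.85 CPM in striatomesencephalic libraries and 243, 175 and 87.7 CPM in striatopallidal libraries. Aqp4, a water channel gene, had 53.0 and 30.5 CPM in striatomesencephalic libraries and 89.4, 63.5 and 62.3 CPM in striatopallidal libraries. The higher pair was Slc1a2, a glutamate transporter gene with 37.6 and 63.9 CPM in striatomesencephalic and 25.4, 36.4 and 26.2 CPM in striatopallidal libraries, and Aldh1l1. The astrocyte sum overlapped, at 1198 and 954 CPM in striatomesencephalic and 1311, 856 and 1053 CPM in striatopallidal libraries.

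The 5 of 9 interneuron markers found also ran both ways, and their sum overlapped, at 60.8 and 82.5 CPM in striatomesencephalic and 90.2, 62.6 and 128 CPM in striatopallidal libraries. Sst and Chat were lower in both striatomesencephalic libraries, Sst with 10.9 and 2.12 CPM there against 14.2, 19.2 and 25.5 CPM in striatopallidal libraries. Slc5a7 and Calb2 were higher in both, Slc5a7 with 16.0 and 8.0 CPM in striatomesencephalic against 4.32, 2.22 and 1.87 CPM in striatopallidal libraries. The other markers lower in both striatomesencephalic libraries were the oligodendrocyte gene Mag and the microglial gene Tmem119. They were 1 of 8 oligodendrocyte and 1 of 4 microglial markers found, and none of either list was higher in both. The oligodendrocyte sum overlapped, at 5888 and 7253 CPM in striatomesencephalic and 7057, 6223 and 5261 CPM in striatopallidal libraries. The microglial sum overlapped too, at 32.9 and 18.2 CPM in striatomesencephalic and 89.7, 30.0 and 29.6 CPM in striatopallidal libraries.

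Grik5 had 152 and 184 CPM in striatomesencephalic libraries and 144, 935 and 124 CPM in striatopallidal libraries. Striatopallidal replicate 2, with 17927 raw counts, was 5.08-fold above the next highest library in TMM-scaled CPM. The other 2 striatopallidal libraries lay below both striatomesencephalic ones. In the fit its value was -1.26 ± 0.92 (SE) as a log2 fold change, and the adjusted p was 0.826 in edgeR's test. It turned to 0.31 without striatopallidal replicate 2. A value at least as far above the next library was found in striatopallidal replicate 2 for 372 genes (2.69% of those tested), and in each of the other libraries for 93 to 170 genes.

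**Figure D2:**
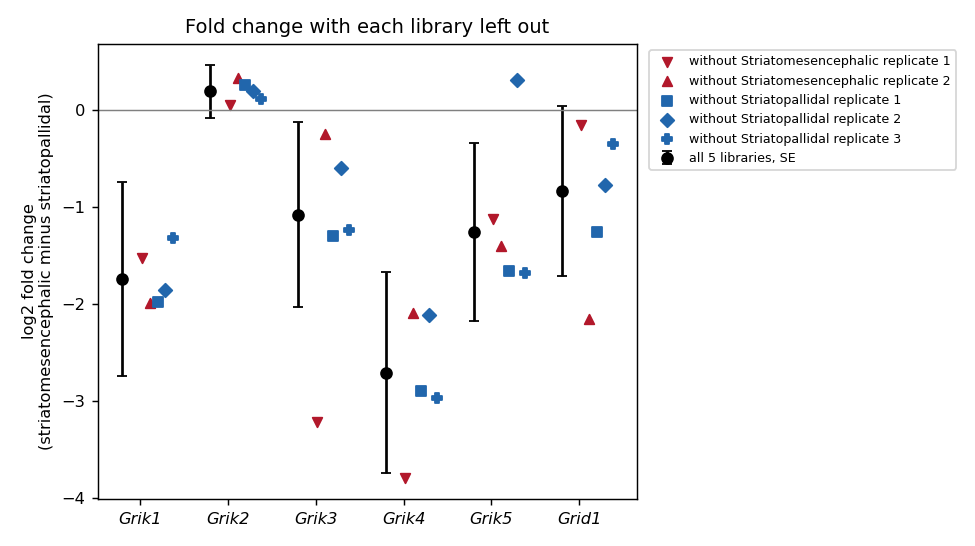
Log2 fold change of each gene, striatomesencephalic minus striatopallidal, with all 5 libraries (black, bar: SE) and with each library left out in turn (coloured symbols). Grik4 keeps values of -2.09 or below, Grik5 turns to 0.31 without striatopallidal replicate 2, and Grik3 moves between -3.22 and -0.25.

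Counted together, Grik1 to Grik5 summed to 1420 and 1201 CPM in striatomesencephalic libraries and to 1268, 2042 and 1053 CPM in striatopallidal libraries. The groups overlapped, with means of 1310 ± 155 CPM for striatomesencephalic (SD, n = 2) and 1454 ± 520 CPM for striatopallidal neurons (SD, n = 3). The striatopallidal mean was 1160 CPM without replicate 2. No p is given for sums or shares, because the 6 genes were chosen as a family and an exact permutation test of 2 against 3 libraries cannot give a p below 0.1.

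Within this sum, Grik2 took 85.7% and 83.9% of the counts in striatomesencephalic libraries and 84.4%, 48.3% and 82.2% in striatopallidal libraries. In 4 of the 5 libraries the Grik2 share thus lay within a narrow band, and striatopallidal replicate 2 lay far below it. The Grik5 share was 10.7% and 15.3% in striatomesencephalic and 11.4%, 45.8% and 11.8% in striatopallidal libraries. The difference in mean Grik5 share, striatomesencephalic minus striatopallidal, was -9.98 percentage points, and 1.42 points without striatopallidal replicate 2. After TMM scaling Grik2 had 987 CPM in that library, inside its range in the others. Its raw count there, 18930, was the lowest of the 5 libraries, while the Grik5 raw count of 17927 was the highest. In a sum without Grik5, given below, Grik2 took 89.1% in striatopallidal replicate 2 and 93.2% to 99.1% in the others. The low Grik2 share of 48.3% therefore went mainly with the high Grik5 count. These are shares of reads and not of molecules, since a longer transcript gives more reads and no transcript lengths were used. Wilson 95% intervals, which cover counting error only, reached at most 0.495 percentage points to either side.

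The minor subunits had shares of a few percent or less. The Grik4 share was 0.301% and 0.109% in striatomesencephalic and 1.03%, 1.5% and 1.04% in striatopallidal libraries. These shares did not overlap between the groups, and the mean difference was -0.99 percentage points. The Grik1 share was 0.133% and 0.217% in striatomesencephalic and 0.390%, 0.309% and 1.08% in striatopallidal libraries. These Grik1 shares did not overlap either, but their counting error did. The 95% Wilson intervals of the closest libraries overlapped, 0.169% to 0.279% in striatomesencephalic replicate 2 and 0.259% to 0.369% in striatopallidal replicate 2. The Grik3 share was 3.14% and 0.474% in striatomesencephalic and 2.79%, 4.08% and 3.88% in striatopallidal libraries, which overlapped. Among Grik1 to Grik4 alone, Grik2 took 96.0% and 99.1% in striatomesencephalic and 95.2%, 89.1% and 93.2% in striatopallidal libraries. This sum without Grik5 was chosen after the data were seen. On that base the Grik2 shares no longer overlapped between the groups, with 96.0% and 95.2% the closest values. The Grik2 share here is what Grik1, Grik3 and Grik4 leave, so it is not a result separate from theirs.

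**Figure D3:**
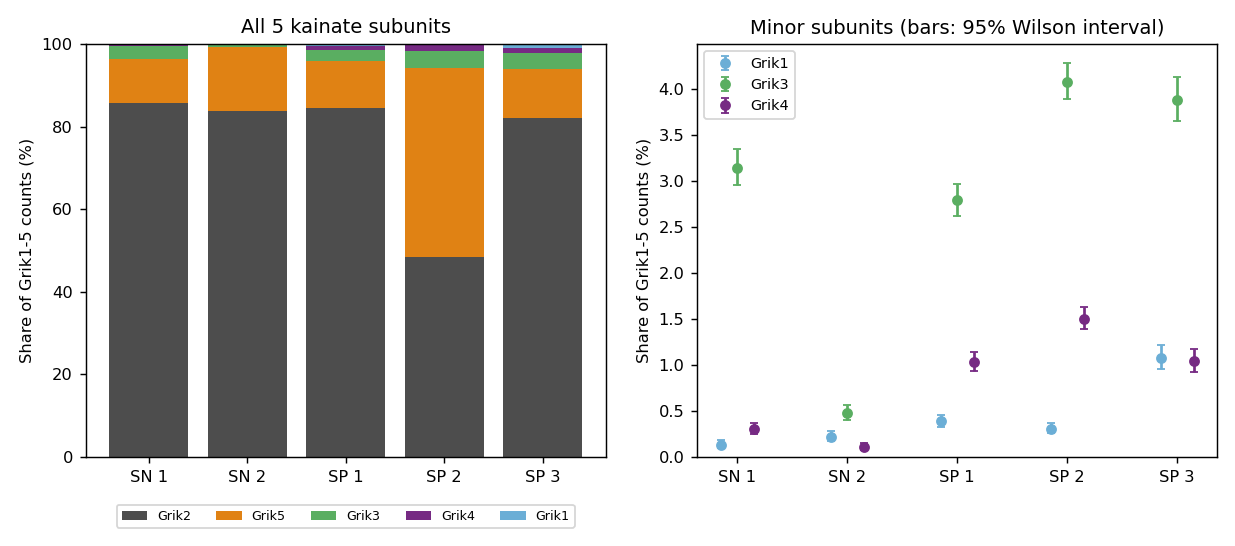
Share of each subunit in the summed Grik1 to Grik5 raw counts of each library (left, stacked bars) and of Grik1, Grik3 and Grik4 on a wider scale (right, bars: 95% Wilson interval of counting error). Grik2 takes 82.2% to 85.7% in 4 libraries and 48.3% in SP 2, where Grik5 takes 45.8%.

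Grid1 had 15.9 and 63.6 CPM in striatomesencephalic libraries and 23.7, 77.9 and 112 CPM in striatopallidal libraries. The groups overlapped and each spanned a wide range, 4.0-fold in striatomesencephalic and 4.71-fold in striatopallidal libraries. Means were 39.8 ± 33.8 CPM for striatomesencephalic (SD, n = 2) and 71.1 ± 44.3 CPM for striatopallidal neurons (SD, n = 3). Its fold change was -0.84 ± 0.88 (SE) on the log2 scale, and the adjusted p was 0.881 in edgeR's test. It was -0.16 without striatomesencephalic replicate 1, -2.16 without striatomesencephalic replicate 2 and -0.36 without striatopallidal replicate 3.

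The genes differed in how far libraries of one group spread. The pooled spread of log2(CPM + 1) within groups was 1.33 for Grik5, 1.25 for Grik3 and 1.22 for Grid1, larger than that of 83.5%, 80.7% and 79.5% of the genes tested. It was 0.78 for Grik4 and 0.46 for Grik1, with 53.7% and 25.5% of genes below. The 1 added before the logarithm shrinks the spread of genes as low as these 2. As a ratio of CPM, striatomesencephalic libraries spanned 3.28-fold for Grik4 and 1.38-fold for Grik1, against a median of 1.89-fold. Striatopallidal libraries spanned 2.79-fold and 2.29-fold, against a median of 3.22-fold. Grik2, as given above, was the steadiest of the 6.

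The genes whose library profile lay nearest to each subunit were found from centred log2(CPM + 1) over the 5 libraries, by the root mean square difference among 11903 named genes. For Grik2 they were AC115255.1 at 0.027, a gene of 1.76 to 2.80 CPM, and Meis2 at 0.060, a homeobox gene of striatal projection neurons with 1351 and 1155 CPM in striatomesencephalic and 1125, 1040 and 1005 CPM in striatopallidal libraries. For Grik1 they were Dact2 at 0.10 and the potassium channel gene Kcns2 at 0.15. For Grik4 they were Agmo at 0.21 and the RNA polymerase subunit gene Polr2j at 0.22. For Grik3 they were Haus7 at 0.16 and the insulin receptor gene Insr at 0.26, both lowest in striatomesencephalic replicate 2. For Grik5 they were the dynein gene Dync1li1 at 0.10 and Hibadh at 0.11, both highest in striatopallidal replicate 2. Grid1 lay nearest to Cfp at 0.15 and Tfr2 at 0.17, the latter a gene of only 0.092 to 6.34 CPM. Adding 1 before the logarithm shrinks the fold differences of genes this low. The median distance to all named genes was 0.75 for Grik2 and 1.04 to 1.46 for the other 5. Profiles over 5 libraries share their depth and scaling, and likeness is given as a description.

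Genes of proteins that bind or modify these receptors were read from the same fit. Of 19 listed, 14 could be matched by symbol and all 14 were tested. Cbln1, Cbln2, Cbln3, Grid2ip and Klhl17 were not matched, so their levels were not read. None passed the threshold (adjusted p-values 0.779 to 0.991 in edgeR's test), 6 were higher and 8 lower in striatomesencephalic neurons, and the median log2 fold change was -0.082. Among all genes tested, 52.6% had a log2 fold change below 0 and the median was -0.059. Of these 14, 1 had an unadjusted p below 0.05 in edgeR's test, as did 6.07% of all genes tested. In both striatomesencephalic libraries 3 of the 14 were lower, where 11.2% of all genes tested were, and 0 were higher, where 10.4% were.

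Neto1 and Neto2 encode auxiliary subunits that change the gating of kainate receptors. Neto2 had 121 and 106 CPM in striatomesencephalic libraries and 283, 195 and 444 CPM in striatopallidal libraries. The groups did not overlap, and the log2 fold change was -1.44 ± 0.47 (SE), with an unadjusted p of 0.0190 and an adjusted p of 0.779 in edgeR's test. Neto1 had 643 and 322 CPM in striatomesencephalic and 560, 572 and 481 CPM in striatopallidal libraries, which overlapped, with a log2 fold change of -0.16 ± 0.39 (SE).

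Among the secreted ligands of the C1q family, Cbln4 was the only cerebellin matched by symbol. It had 251 and 2 raw counts in striatomesencephalic libraries and 24, 1 and 7 raw counts in striatopallidal libraries. Its log2 fold change of 3.79 ± 1.91 (SE) rested on striatomesencephalic replicate 1 and was -2.17 without it. C1ql2 had 216 and 25 raw counts in striatomesencephalic and 29, 8 and 37 in striatopallidal libraries. C1ql3 had 23 and 469 raw counts in striatomesencephalic and 54, 0 and 90 in striatopallidal libraries. C1ql1 had 7 and 12 raw counts in striatomesencephalic and 15, 77 and 40 in striatopallidal libraries. For Cbln4, C1ql2 and C1ql3 a single striatomesencephalic library held most of the counts.

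The neurexin genes Nrxn2 and Nrxn3, whose proteins bind cerebellins, had log2 fold changes of -0.79 ± 0.42 and -0.048 ± 0.30 (SE). Nrxn2 had 93.9 and 74.0 CPM in striatomesencephalic and 128, 163 and 144 CPM in striatopallidal libraries, without overlap.

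Of the intracellular binding proteins, Pick1, a PDZ-domain protein, had 35.7 and 11.0 CPM in striatomesencephalic and 12.9, 1.77 and 4.87 CPM in striatopallidal libraries. The groups overlapped, with a log2 fold change of 1.84 ± 1.05 (SE). Dlg4, which encodes PSD-95, had -0.72 ± 0.62, Grip1, another PDZ-domain protein, had -0.12 ± 0.41 and the scaffold kinase gene Cask had 0.28 ± 0.55 on the same scale. Adarb1, which encodes the enzyme that edits the pore of GluK1 and GluK2 transcripts, had 110.0 and 166 CPM in striatomesencephalic and 138, 166 and 168 CPM in striatopallidal libraries. Its log2 fold change was -0.19 ± 0.41 (SE), and that of the related gene Adar was 0.61 ± 0.45 (SE). Editing itself was not measured, since gene counts do not hold it.

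**Figure D4:**
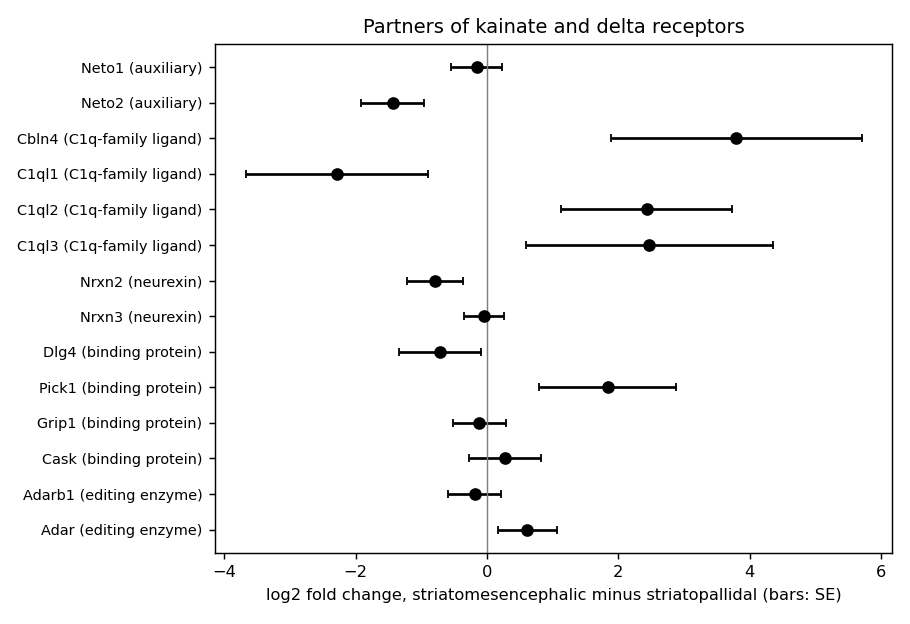
Log2 fold change, striatomesencephalic minus striatopallidal, of the 14 partner genes tested, with bars of 1 SE from edgeR's quasi-likelihood fit. Neto2 at -1.44 lies farthest from 0 relative to its SE, and none of the 14 passed the adjusted threshold.

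The authors' deposited table gives fold changes of striatopallidal over striatomesencephalic neurons, the opposite order. In the authors' deposited table the log2 fold change was 1.54 for Grik1, -0.29 for Grik2, 1.63 for Grik3 and 2.79 for Grik4. In the authors' deposited table it was 0.66 for Grik5 and 0.79 for Grid1. Turned round, all 6 have the direction of the present fit. Both come from the same 5 libraries, and the order of the deposited comparison was checked against their counts. The shared direction is therefore not separate evidence. The smallest p-value of the 6 in the authors' deposited table was 0.0557 for Grik4, and the adjusted p-values there ran from 0.927 to 0.931.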

How the data were processed

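RNA from laser-captured neurons was reverse transcribed from polyadenylated ends and amplified with a single-cell kit before library construction, per the labels' protocols. Amplified reads without molecular identifiers are not independent molecules, so counting intervals cover counting error only. The tools TopHat2, HTSeq, edgeR and limma and the build Rnor_6.0 are named in the submitters' processing notes, without version, role or strand setting. Reads of overlapping antisense genes therefore cannot be told apart. The authors deposited raw read counts per gene for each of 5 libraries. The authors' deposited comparison holds log2 fold changes, p-values and adjusted p-values, and its test statistic, a score, was not used.

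The main test was edgeR 4.0.16 (R 4.3.3) on the counts of all 5 libraries: filterByExpr by group, TMM scaling, glmQLFit and glmQLFTest, Benjamini-Hochberg adjustment over 13811 genes with a threshold of 0.05. Each standard error was derived from the fold change and the F value. Alternatives used DESeq2 1.42.0, limma 3.58.1 (voom), other scalings, no filter, a block on replicate number and each library left out. Libraries differed by more than counting noise (chi-square per degree of freedom 164 or more), so each was counted as its own sample, although this does not show whether any shared their RNA. Whether libraries of a group come from separate animals is not stated, so p-values measure only the spread between these libraries. For the partner list, 2 genes are not reported here, and its counts leave them out. The subunits, partner list and markers were chosen with earlier results of these data known. All 6 subunits, the partner genes and, for each subunit, its 2 nearest genes by profile could be named, by a written rule.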

Additional observations from a re-analysis of the deposited data

How the results depend on the processing

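Of the 6 subunit genes, 5 kept the direction of their log2 fold change under all 12 alternatives, and none passed the threshold under any. Grik5 turned to 0.31 when striatopallidal replicate 2 was left out, and its values with 1 library left out ran from -1.69 to 0.31. The cause of its single high library was not tested. DESeq2 called 226 genes where edgeR's quasi-likelihood test called 0. The median log2 fold change of all genes was -0.18 with the submitters' factors and 0.0024 with library totals, against -0.059 with TMM. The difference in Grik3 share ran from -3.11 to -0.44 percentage points with 1 library left out, and that of Grik4 share was -1.47 points among Grik1 to Grik4 alone, a base chosen after the data were seen. Shares per coding length were not run, as no lengths were at hand.

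Of the 14 partner genes, 7 kept their direction under all alternatives. Leaving out 1 library turned 7 of them: Cbln4 ran from -2.17 to 4.79, Grip1 from -0.38 to 0.11, Cask from -0.15 to 0.61, Adarb1 from -0.51 to 0.081, Neto1 from -0.74 to 0.26, C1ql3 from -0.86 to 3.40 and Nrxn3 from -0.19 to 0.080 on the log2 scale. Nrxn3 was also 0.019 with library totals and 0.093 with the replicate block. Replicate numbers are not stated to pair libraries, and the deviations of same-numbered libraries correlated at -0.026 and -0.037 across genes. With the replicate block 0 genes passed, the Grik4 log2 fold change was -3.07 and that of Grik1 -1.33. Of the 6 subunit genes, Grik1 and Grik4 had the lowest counts, down to 41 and 30 in a library, and among the partner genes C1ql3 had 0 in one.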
